A study of Mus musculus with 6 samples.

Results

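DNA replication genes encode the proteins that license, open and copy the genome in S phase, together with the enzymes that supply its nucleotides. In this RNA-seq series 46 such genes were followed by symbol, and all 46 were listed among the 16244 genes of the deposited table. They were grouped by role into origin licensing (5 genes), the MCM2-7 helicase (6), helicase activation (7), polymerases and primase (8), clamp and clamp loader (6), single-strand binding (3), flap removal and ligation (2), nucleotide supply (5), chromatin assembly (2) and E2F activators (2). The libraries came from wild-type (WT) C57BL/6 mice and from knockin mice on that background that carry an N275D substitution in RORγt, the lineage-defining transcription factor of Th17 cells. Naive CD4+ T cells, for which the labels give the spleen as source, were activated with anti-CD3 and anti-CD28 and cultured for 3 days under pathogenic Th17 conditions. Besides IL-6, IL-1β and IL-23, the methods list TGF-β and antibodies to IL-4 and IFN-γ for this condition, and every component was shared by both genotypes. The age and sex of the mice behind these libraries were not given in the labels. For the study in general the methods state an age range of young adult mice and the use of both sexes. There were 3 WT and 3 RORγt N275D libraries. Whether the replicates were separate mice or cultures and whether the mutant mice were homozygous were not given in the labels. P-values therefore measure the spread between these libraries, which may be technical.

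Before S phase the origin recognition complex, CDC6 and CDT1 load MCM2-7 helicases onto chromatin, which is known as licensing. CDC45 and the GINS complex then turn the loaded MCM2-7 into an active helicase, and primase, the replicative polymerases, the sliding clamp PCNA and its loader copy both strands. Many of these genes are known targets of E2F factors and are induced when quiescent T cells enter the cell cycle after activation.

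Each library held between 17659035 and 18510878 reads on genes. Values are reads normalized by the authors with 1 factor per library, and folds were computed on log2(normalized reads + 1) as N275D minus WT. WT replicate 3 stood apart: it differed from the other WT replicates by 2.99 and 3.07 times the counting noise, against 1.32 to 1.55 for every other pair within a genotype. The labelled cell type was checked with 7 CD4 T cell and Th17 markers, which were all listed and above 0 in every library. Their summed level was 72100 to 76170 normalized reads in WT and 83160 to 83960 in N275D cells, with 3 of the 7 higher and 3 lower. The markers of other cells were low, but they moved with genotype in part. The 5 B cell markers summed to 150 to 160 normalized reads in WT and 214 to 273 in N275D libraries, and *Ms4a1* was at 0 in 2 WT libraries. The 5 myeloid markers summed to 81.8 to 92.8 and 82.0 to 106, and *Csf1r* was at 0 in 1 WT library. Within that list *Adgre1* was lower in N275D cells, at 19.2 to 25.5 normalized reads in WT and 4.01 to 9.98 in mutant libraries. Of 5 CD8 T and NK cell markers, 4 were listed and summed to 182 to 195 and 251 to 281, with *Klrb1c* at 0 in 4 libraries. *Sox13* was the 1 of 4 gamma delta T cell markers listed, at 18.2 to 31.4 and 35.1 to 38.5. Their part in the values below was not tested.

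The replication genes were lower in N275D than in WT Th17 cells, by a modest amount and in most roles. Of the 46 genes, 33 were lower and 0 were higher at an adjusted p under 0.05 (limma with Benjamini-Hochberg adjustment over the 11908 genes that averaged 10 normalized reads or more), which is 71.7%. Of all genes tested, 26.1% were called lower and 24.7% higher. At an unadjusted p under 0.05 in either direction, 35 members passed, as did 56.4% of all genes tested. The median log2 fold change of the 46 was -0.20, with a range from -0.43 for *Gins1* to 0.08 for *E2f2*, and over all genes tested the median was -0.0026. Every member averaged at least 229 normalized reads, well above the filter on all genes. With that filter raised to a mean of 100, 2914 of 9581 genes were called lower, with a median of -0.022, and the 33 members stayed called. No member reached 2-fold in either direction, where 0.857% of all genes were called lower and 2.73% higher at that fold. With a minimum of 1.2-fold, 17 members were called lower, where 13.0% of all genes were. Bulk RNA-seq cannot tell fewer cells in S phase from less of these transcripts per cell.

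The shift was seen in each mutant library. Against the WT mean of each gene, the median member lay at 0.0065, -0.0022 and -0.0087 on the log2 scale in the 3 WT libraries and at -0.20 in all 3 N275D libraries. In WT libraries 19 to 25 of the 46 genes lay below that mean, and in N275D libraries 41 or 42 did. The WT figures are balanced around 0 by construction, as the mean was taken over the same WT libraries. Summed over the 46 genes, the WT libraries held 128158 to 129858 normalized reads and the N275D libraries 109346 to 110788, so that the sum was 14.7% lower. The 46 genes took 0.705% to 0.719% of the normalized reads of a WT library and 0.619% to 0.625% of those of an N275D library. For 35 of the genes all 3 N275D libraries lay below all 3 WT libraries, where 29.6% of all genes tested did so, and *E2f2* alone lay above in all 3, where 28.1% of all genes did. For a single gene, 3 libraries per genotype allow no two-sided p under 0.1 by exact permutation.

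**Figure D1:**
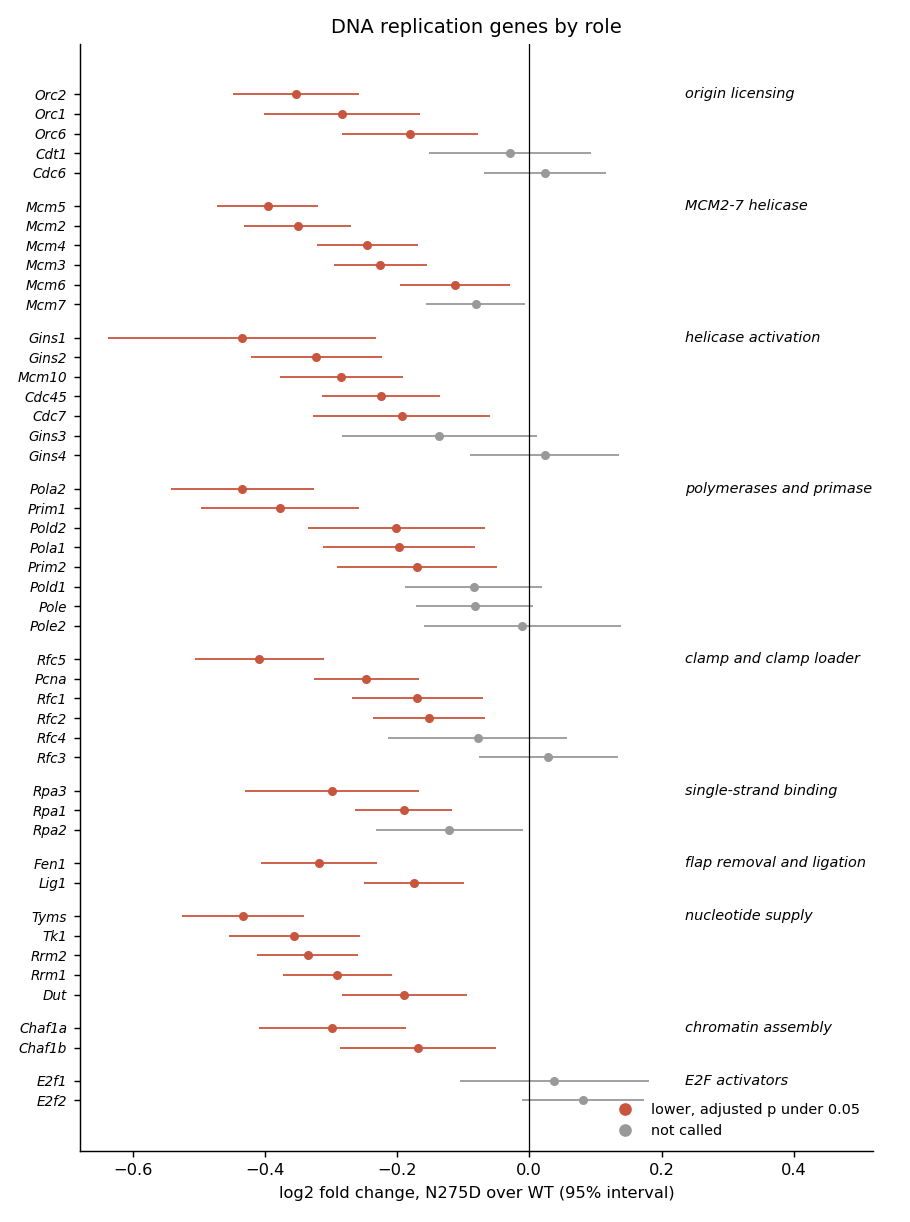
Log2 fold change of N275D over WT Th17 cells (horizontal axis) for each of the 46 replication genes, grouped by role, with its 95% interval from limma. Points in red are the 33 genes called lower at an adjusted p under 0.05 and points in grey the 13 not called; 41 of the 46 lie left of 0, and all lie between -0.43 and 0.08.

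All 6 subunits of the MCM2-7 helicase, the motor that unwinds the parental strands, had lower values in every N275D library than in any WT library, and 5 of the 6 passed the test. Per kilobase of mRNA, WT levels ran from 1470 ± 55.1 normalized reads (SD, n = 3) for *Mcm2* to 3061 ± 45.6 for *Mcm3*. *Mcm5* had 8565, 8445 and 8892 normalized reads in the WT and 6541, 6747 and 6397 in the N275D libraries. The gap between the lowest WT and the highest mutant library was wider than the spread within either genotype. Its log2 fold change was -0.40 (standard error, SE, 0.04; limma adjusted p = 1.96e-07). *Mcm2*, which carries a histone-binding region, had 4744, 5041 and 5085 in WT and 3842, 3953 and 3863 in N275D libraries, a log2 fold change of -0.35 (adjusted p = 1.61e-06 from limma).

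The next pair of subunits moved by less. *Mcm4* had 5672, 5566 and 5368 normalized reads in WT and 4686, 4594 and 4731 in N275D libraries, with a log2 fold change of -0.24 (adjusted p = 3.73e-05 from limma). *Mcm3* had 9317, 9125 and 9393 against 8111, 7854 and 7845, with a log2 fold change of -0.23 (adjusted p = 3.81e-05 from limma). Both separated the genotypes without overlap. *Mcm6* had 7113, 6942 and 6434 normalized reads in WT and 6329, 6267 and 6338 in N275D libraries, so that WT replicate 3 came close to the mutant values. Its log2 fold change of -0.11 (adjusted p = 0.0253 from limma) was not called under quantile normalization (adjusted p = 0.277), without the trended prior (adjusted p = 0.113) or without any 1 library other than WT replicate 3 (adjusted p from 0.0627 to 0.128). *Mcm7* had 5247, 5225 and 5454 normalized reads in WT and 4979, 4991 and 5082 in N275D libraries. Its log2 fold change was -0.08 (95% interval -0.16 to -0.01, adjusted p = 0.0661 from limma), and it was not called.

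*Mcm5* and *Mcm7* had the largest and the smallest fold of the 6 subunits, and their ratio is given as a description. That ratio was 1.63, 1.62 and 1.63 in WT and 1.31, 1.35 and 1.26 in N275D libraries. The ratio did not overlap between genotypes, which the choice of this pair from its values made likely. Summed over the 6 subunits, WT libraries held 40344 to 40658 and N275D libraries 34258 to 34488 normalized reads, a sum 15.2% lower.

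**Figure D2:**
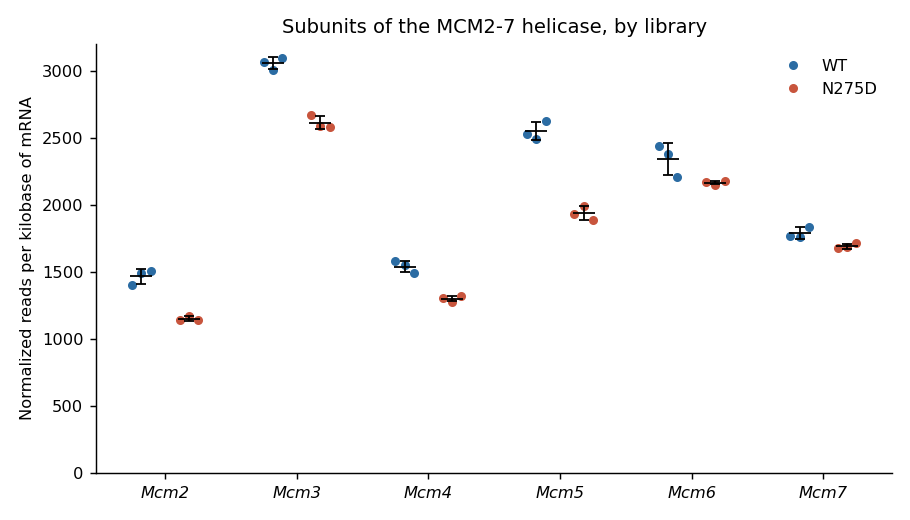
Level of each MCM2-7 subunit as normalized reads per kilobase of mRNA (vertical axis) in the 3 WT (blue) and 3 N275D (red) libraries, with mean and SD bars. On this scale *Mcm5* and *Mcm3* show the widest gaps between genotypes, while *Mcm6* and *Mcm7* show the narrowest.

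Promoters were compared because the members moved together and E2F sites are a known feature of such genes. RefSeq windows of 300 bases (GRCm38.p6, 250 before to 50 after the start) were given for 39 of the 46 members, and they were searched on both strands for 4 spellings of an E2F-type site, TTTCCCGC, TTTGGCGC, TTTCGCGC and TTTGCCGC. Stretches of 90 bases before the start are shown for a pair of genes called lower, *Mcm5* (chr8:75109319-75109408, plus strand) and *Mcm6* (chr1:128359706-128359795, minus strand), and a pair not called, *Gins3* (chr8:95633469-95633558, plus strand) and *Rfc3* (chr5:151651209-151651298, minus strand). Each lies outside the annotated gene and is written 5′ to 3′ on the strand that the table gives for the gene, with matches in capitals. The *Gins3* and *Rfc3* windows also matched a transcript of the gene on that strand, whereas those of *Mcm5* and *Mcm6* matched none on either strand. The calls of *Mcm6* (-0.11) and *Gins3* (-0.14) depended on the processing. Under quantile normalization *Mcm6* was not called (adjusted p = 0.277 from limma) and *Gins3* was called lower (adjusted p = 0.0281). In *Mcm5* the capitals hold a pair of matches on opposite strands that overlap. The *Mcm6* window held 3 matches and that of *Rfc3* 2, and for both only the nearest match before the start is printed.
Mcm5: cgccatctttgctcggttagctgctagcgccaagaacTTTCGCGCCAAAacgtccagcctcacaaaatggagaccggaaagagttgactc
Mcm6: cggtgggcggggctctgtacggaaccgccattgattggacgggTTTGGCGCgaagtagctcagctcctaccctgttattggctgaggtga
Gins3: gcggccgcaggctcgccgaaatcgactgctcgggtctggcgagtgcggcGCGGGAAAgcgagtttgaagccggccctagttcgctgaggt
Rfc3: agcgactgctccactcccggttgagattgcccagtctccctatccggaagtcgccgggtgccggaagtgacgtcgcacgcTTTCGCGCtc

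An E2F-type match was found in 14 of 39 members (35.9%), in 4.88% of the 9582 genes tested that had a window, and in 2.26% of all 32851 windows. It was in 6 of the 28 members called lower (21.4%), namely *Orc1*, *Mcm3*, *Mcm5*, *Mcm6*, *Pola1* and *Lig1*. Among the 11 members that were not called and had a window it was in 8 (72.7%), namely *Cdc6*, *Cdt1*, *Mcm7*, *Gins3*, *Pold1*, *Pole2*, *Rfc3* and *E2f2*. The median log2 fold change was -0.10 over the 14 members with a match and -0.28 over the 25 without, of which 22 were called lower. These shares called lower, 42.9% with a match and 88.0% without, ran opposite to those over all genes tested, where 32.9% of 468 genes with a match and 25.9% of 9114 without were lower (medians -0.04 and -0.0017). With only the 250 bases before the start, which were searched first, the match was in 4 of 28 members called lower (14.3%), in 4 of 11 not called (36.4%) and in 4.10% of all genes tested. The search was chosen after the expression values were seen, no test was made of the difference, and a missing match says only that these letters are not in the window. The CCAAT box, written CCAAT, was in 61.5% of members and 43.8% of genes tested. A further element of cell cycle promoters known as CHR, written TTTGAA, was in 17.9% of members and 14.5% of genes tested, and in 68.0% of the 25 mitotic genes with a window, of which 0 held an E2F-type match.

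**Figure D3:**
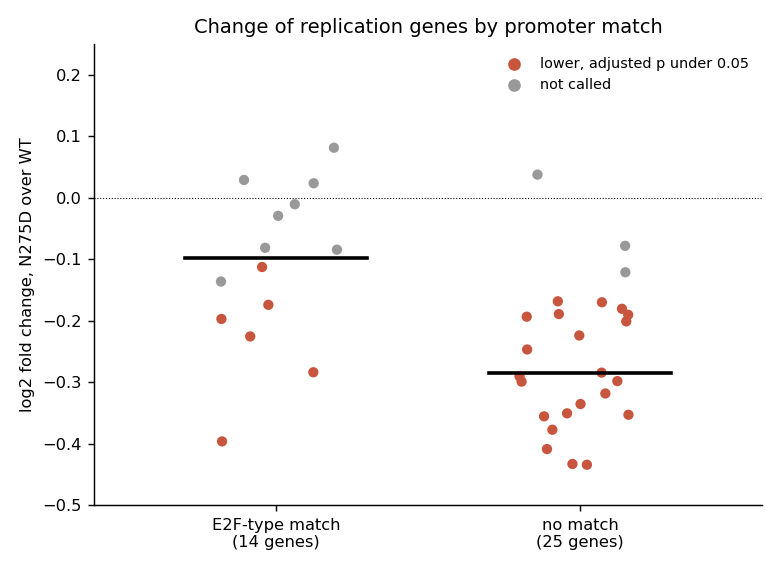
Log2 fold change of N275D over WT (vertical axis) for the 39 members with a promoter window, split by whether the 300 bases hold an E2F-type match; each point is a gene and bars are medians (-0.10 for 14 genes with a match, -0.28 for 25 without). Points in red were called lower and points in grey were not.

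The licensing factors, which act before the helicase is activated, fell into called and uncalled genes. *Orc2*, a subunit of the origin recognition complex, had 2652, 2631 and 2391 normalized reads in WT and 2008, 1993 and 2002 in N275D libraries. The mutant libraries lay close together and below every WT library, with a log2 fold change of -0.35 (SE 0.05; limma adjusted p = 8.54e-06). *Orc1*, the largest subunit of the same complex, had a log2 fold change of -0.28 (adjusted p = 0.00052 from limma), and *Orc6* one of -0.18 (adjusted p = 0.00542 from limma). The loading factors that join the complex in G1 were not called. *Cdc6* had 1604 ± 27.8 normalized reads in WT and 1630 ± 52.4 in N275D cells (SD, n = 3), and *Cdt1* had 1022 ± 83.4 and 999 ± 26.9. The 95% interval of the log2 fold change was -0.07 to 0.12 for *Cdc6* and -0.15 to 0.09 for *Cdt1*.

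Of the 7 genes of helicase activation 5 were lower. *Gins1*, a subunit of the 4-part GINS complex, had the lowest fold of all members, with 299, 246 and 246 normalized reads in WT and 205, 204 and 175 in N275D libraries. The genotypes did not overlap, but 1 library of each genotype lay apart from its group, and the SE of 0.10 was the largest among the members. Its log2 fold change was -0.43 (adjusted p = 0.00129 from limma). The other GINS subunits differed from each other: *Gins2* had a log2 fold change of -0.32 (adjusted p = 3.21e-05 from limma) and *Gins3* one of -0.14 (95% interval -0.28 to 0.01, not called, but called under quantile normalization at an adjusted p of 0.0281), and *Gins4* lay at 0.02 (95% interval -0.09 to 0.14, not called). *Mcm10*, which helps to activate the helicase, fell by 0.28 on the log2 scale and *Cdc45*, the partner of MCM and GINS in the active helicase, by 0.22. *Cdc7*, the kinase that triggers firing of licensed origins, had a log2 fold change of -0.19 (adjusted p = 0.0174 from limma). The call of *Cdc7* was lost without the trended prior (adjusted p = 0.0677) and without any 1 of WT replicates 1 and 2 and N275D replicates 1 and 2 (adjusted p from 0.0578 to 0.101).

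Among the 8 polymerase and primase genes, the polymerase alpha-primase complex that starts each new strand held most of the calls. *Pola2*, its regulatory subunit, had 1951, 1899 and 1987 normalized reads in WT and 1537, 1456 and 1334 in N275D libraries. Every mutant library was below every WT library, with a log2 fold change of -0.43 (SE 0.05; limma adjusted p = 3.63e-06). *Prim1*, the catalytic primase subunit, fell by 0.38 on the log2 scale, *Pola1*, the catalytic polymerase subunit, by 0.20 and *Prim2*, the large primase subunit, by 0.17. The calls of *Pola1* (adjusted p = 0.0623) and *Prim2* (adjusted p = 0.0699) were lost without the trended prior, and that of *Prim2* also without WT replicate 1, N275D replicate 1 or N275D replicate 3 (adjusted p from 0.0572 to 0.118). Within the complex the ratio of *Pola2* to *Pola1* reads was 0.94, 0.91 and 1.12 in WT and 0.89, 0.86 and 0.77 in N275D libraries. The means were 0.99 ± 0.11 and 0.84 ± 0.06 (SD, n = 3). The genotypes did not overlap but lay close, and WT replicate 3, which stood apart, was the highest. This pair too was chosen after its values were seen.

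The polymerases that extend the strands showed smaller folds. *Pold2*, an accessory subunit of the lagging strand polymerase delta, had a log2 fold change of -0.20 (adjusted p = 0.014 from limma). It ranged from 1901 to 2406 normalized reads within WT, and its call was lost under quantile normalization (adjusted p = 0.0759), without the trended prior (0.109) and when N275D replicate 1 was left out (0.0552). Without WT replicate 3 the fold was -0.12 (adjusted p = 0.0275 from limma). *Pold1*, the catalytic subunit of polymerase delta, and *Pole*, that of the leading strand polymerase epsilon, both lay at -0.08 and were not called (95% intervals -0.19 to 0.02 and -0.17 to 0.01), though *Pold1* passed without WT replicate 2 (adjusted p = 0.0432 from limma). *Pole2*, a further epsilon subunit, lay at -0.01 (95% interval -0.16 to 0.14).

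*Pcna*, the sliding clamp that tethers polymerases to DNA, was the most abundant member per length, at 5632 ± 171 normalized reads per kilobase of mRNA in WT (SD, n = 3). It had 8706, 8690.3 and 8250.0 normalized reads in WT and 7236, 7451 and 6934 in N275D libraries, which did not overlap. Its log2 fold change was -0.25 (SE 0.04; limma adjusted p = 5.17e-05). Of the 5 subunits of replication factor C, which opens and loads the clamp, *Rfc5* moved most, with 1631, 1596 and 1504 in WT and 1183, 1182 and 1197 in N275D libraries. The mutant libraries of *Rfc5* were again tightly grouped below WT, at a log2 fold change of -0.41 (SE 0.05; limma adjusted p = 2.19e-06). *Rfc1*, the large subunit, and *Rfc2* were also called, at -0.17 (adjusted p = 0.00638 from limma) and -0.15 (adjusted p = 0.00505), and both calls were lost under quantile normalization (adjusted p = 0.0837 and 0.0541). The call of *Rfc1* was lost without the trended prior as well (adjusted p = 0.0565). *Rfc3* lay at 0.03 (95% interval -0.08 to 0.13) and *Rfc4* at -0.08 (95% interval -0.21 to 0.06), and neither was called, though *Rfc4* passed without WT replicate 3 (adjusted p = 0.0298 from limma). The ratio of *Rfc5* to *Rfc3* reads was 1.45 ± 0.10 in WT and 1.07 ± 0.05 in N275D cells (SD, n = 3), without overlap, and the pair was chosen after its values were seen.

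Replication protein A coats the single strands that the helicase exposes. Its smallest subunit gene *Rpa3* had 542, 573 and 526 normalized reads in WT and 457, 422 and 454 in N275D libraries. The groups of *Rpa3* did not overlap, and the log2 fold change was -0.30 (SE 0.06; limma adjusted p = 0.000803). *Rpa1*, the large subunit, was at -0.19 (adjusted p = 0.00027 from limma). *Rpa2* was not called at -0.12 (95% interval -0.23 to -0.01, adjusted p = 0.0647 from limma), and passed without WT replicate 2 (adjusted p = 0.0167) or WT replicate 3 (adjusted p = 0.033) and with library weights (adjusted p = 0.0257). The genes that process Okazaki fragments were both lower. *Fen1*, the nuclease that removes flaps, had 3005, 2904 and 3048 in WT and 2438, 2451 and 2297 in N275D libraries, with no overlap and a log2 fold change of -0.32 (SE 0.04; limma adjusted p = 9.9e-06). *Lig1*, the ligase that seals the nicks, fell by 0.17 on the log2 scale.

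Nucleotide supply had the lowest median of the roles with a called gene, at -0.34, and all 5 of its genes were called lower. *Tyms*, thymidylate synthase, had 1959, 1934 and 1972 normalized reads in WT and 1423, 1511 and 1413 in N275D libraries. The WT libraries were tightly grouped and every mutant library lay below them, with a log2 fold change of -0.43 (SE 0.04; limma adjusted p = 6.56e-07). *Rrm1* and *Rrm2* encode the large and small subunits of ribonucleotide reductase, which makes deoxyribonucleotides. *Rrm1* had 9268, 10007 and 9077 normalized reads in WT and 7610.0, 7877 and 7678 in N275D libraries, and *Rrm2* had 6725, 6715 and 6333 in WT and 5222, 5242 and 5204 in N275D libraries. Neither overlapped, and the log2 fold changes were -0.29 for *Rrm1* (adjusted p = 1.44e-05 from limma) and -0.34 for *Rrm2* (adjusted p = 1.36e-06 from limma). The ratio of *Rrm2* to *Rrm1* was 0.70 ± 0.03 in WT and 0.68 ± 0.01 in N275D cells (SD, n = 3), with overlap (exact permutation test, two-sided p = 0.3). *Tk1*, thymidine kinase of the salvage pathway, fell by 0.36 on the log2 scale and *Dut*, which removes dUTP, by 0.19. Summed over the 5 genes, WT libraries held 22204 to 23441 and N275D libraries 18254 to 18725 normalized reads, 19.1% lower.

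Chromatin assembly factor 1 places histones behind the fork. *Chaf1a*, its large subunit, had 3404, 3181 and 3762 normalized reads in WT and 2746, 2914 and 2739 in N275D libraries. WT replicate 3 was the highest library, the groups did not overlap, and the log2 fold change was -0.30 (SE 0.05; limma adjusted p = 0.000198). *Chaf1b*, a further subunit, was at -0.17 (adjusted p = 0.0185 from limma), and its call was lost with DESeq2 (adjusted p = 0.0594) and without WT replicate 1, N275D replicate 2 or N275D replicate 3 (adjusted p from 0.0675 to 0.0873).

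The E2F activators, which switch on S phase genes, were the only role with no called gene and the only one whose sum was not lower. *E2f1* had 479, 475 and 548 normalized reads in WT and 527, 489 and 524 in N275D libraries, which overlapped. *E2f2* had 1239, 1265 and 1254 in WT and 1344, 1308 and 1325 in N275D libraries. Every mutant library of *E2f2* lay above every WT library, with a log2 fold change of 0.08 (95% interval -0.01 to 0.17, adjusted p = 0.132 from limma), and it was not called. For *E2f1* the log2 fold change was 0.04 (95% interval -0.11 to 0.18). Without these 2 factors, 33 of 44 genes (75.0%) were called lower, with a median of -0.20.

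**Figure D4:**
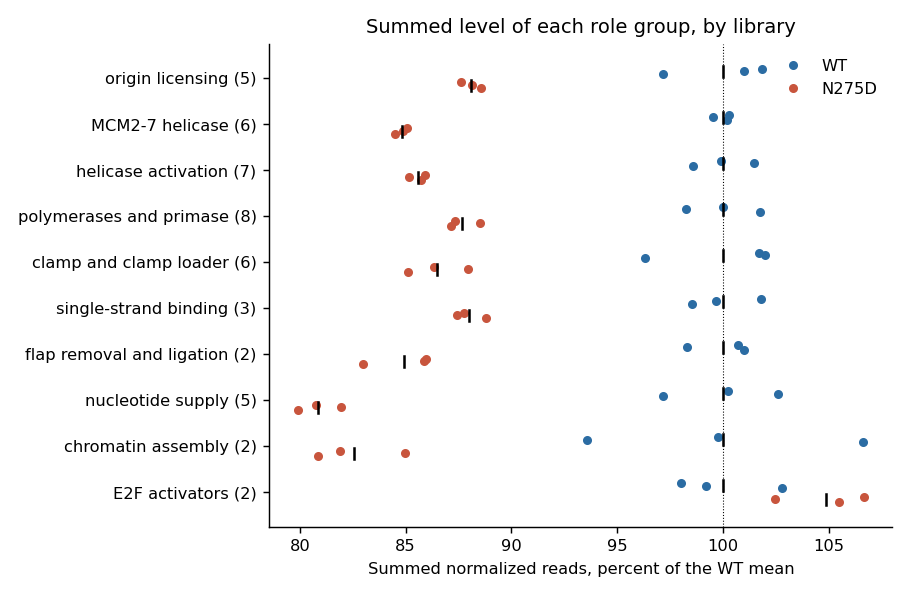
Summed normalized reads of each role in every library, as a percentage of the WT mean of that role (horizontal axis), for WT (blue) and N275D (red) libraries, with bars at the means. In 9 roles the 3 N275D libraries lie below the 3 WT libraries, and for the E2F activators the mutant mean lies above the WT mean with overlap.

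Other genes of the pathway were taken from a list of 68 that was chosen with earlier results of these data known. All 68 were tested. Of them 40 were lower (58.8%, where 26.1% of all genes tested were), 7 were higher and the median log2 fold change was -0.17. Among 14 further fork and polymerase genes 10 were lower and 2 higher, and 3 of the lower calls were lost under at least 1 alternative. *Rnaseh2a*, the catalytic subunit of RNase H2, was the weaker of the higher calls, at 0.16 (adjusted p = 0.0477 from limma), and was not called with DESeq2 (adjusted p = 0.0755), under quantile normalization (0.052) or without any 1 library other than WT replicate 3 (adjusted p from 0.0568 to 0.239). *Dna2*, a nuclease-helicase of flap processing, had a log2 fold change of -0.60 (adjusted p = 1.44e-07 from limma), *Top1*, which relieves supercoils ahead of the fork, -0.48 (adjusted p = 9.86e-08) and *Pole3*, an accessory subunit of polymerase epsilon, -0.37 (adjusted p = 0.00474; 0.0643 without the trended prior, with a fold of -0.23 without WT replicate 3). *Pold4*, the smallest subunit of polymerase delta, went the other way, from 653, 700.1 and 799 normalized reads in WT to 1050.2, 1076 and 1047 in N275D libraries, with a log2 fold change of 0.56 (adjusted p = 2.36e-06 from limma). The 4 polymerase delta genes measured therefore gave folds of both signs.

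Of 11 further nucleotide genes 7 were lower and 2 higher, where 26.1% of all genes tested were lower and 24.7% higher. *Shmt1*, which feeds one-carbon units to thymidylate synthesis, had 2900, 2827 and 2686 normalized reads in WT and 1804, 1766 and 1807 in N275D libraries, a log2 fold change of -0.64 (adjusted p = 3.72e-09 from limma). *Dctd*, dCMP deaminase, was at -0.60 and *Umps*, which makes UMP, at -0.45. The 2 that rose were *Rrm2b*, the ribonucleotide reductase subunit used outside S phase, at 0.35 (adjusted p = 0.000689 from limma), and *Samhd1*, which degrades deoxyribonucleotides, at 0.34 (adjusted p = 1.26e-05 from limma). *Rrm2b* had 312, 361 and 335 normalized reads in WT and 417, 417 and 447 in N275D libraries. *Rrm2* and *Rrm2b*, the alternative small subunits of one enzyme, thus moved in opposite directions.

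The remaining sublists held 11 other licensing and firing genes (5 lower, 0 higher), 4 genes of the alternative clamp loader (2 and 0), 9 chromatin genes of the fork (8 and 0) and 8 checkpoint genes (3 and 1). The shares lower were 45.5%, 50.0%, 88.9% and 37.5% in that order, where 26.1% of all genes tested were lower and 24.7% higher. Calls were lost under at least 1 alternative for 3 of the 5 lower genes of the first (*Donson*, *Topbp1* and *Recql4*, chosen after their values were seen), 1 of the 2 of the second and 3 of the 8 of the third. *Orc5*, another origin recognition subunit, was lowest in the first, at -0.30, and *Dnmt1*, the maintenance DNA methyltransferase, in the third, at -0.39. In the checkpoint list *Rad1*, of the checkpoint clamp, fell by 0.42 on the log2 scale and *Atr*, the checkpoint kinase, rose by 0.19. The call of *Atr* was lost without WT replicate 3 or any 1 N275D replicate (adjusted p from 0.0546 to 0.134), without the trended prior (adjusted p = 0.154) and with all genes kept (adjusted p = 0.0726).

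Of 11 other E2F and pocket protein genes 5 were lower and 2 higher, where 26.1% of all genes tested were lower and 24.7% higher. *Tfdp1*, the dimer partner of E2F factors, had 7283, 7375 and 7771 normalized reads in WT and 5674, 5831 and 5645 in N275D libraries, a log2 fold change of -0.39 (adjusted p = 3.02e-07 from limma). The repressor genes *E2f7*, *E2f8*, *E2f6* and *E2f4* fell by 0.31, 0.21, 0.21 and 0.23 on the log2 scale. *E2f3*, the third activator, lay at 0.0029 (adjusted p = 0.964 from limma) and *E2f5*, the fifth repressor gene of the family measured, at -0.18 (adjusted p = 0.0692). The genes that rose were *Tfdp2*, another dimer partner, at 0.17 and *Rbl2*, a pocket protein of quiescent cells, at 0.15. These calls were lost without N275D replicate 3 for *Tfdp2* (adjusted p = 0.0586 from limma), and without WT replicate 2 (adjusted p = 0.0618) or N275D replicate 1 (adjusted p = 0.09) for *Rbl2*, and that of *E2f6* was lost with DESeq2 (adjusted p = 0.0556). The pocket protein genes *Rb1* (0.03) and *Rbl1* (-0.07) were not called. *E2f5* was called lower under quantile normalization (adjusted p = 0.0158 from limma) and without WT replicate 1 (adjusted p = 0.0273).

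Genes of the neighbouring cell cycle steps, from lists also chosen with earlier results known, were counted in the same fit. Of 11 G1/S cyclin and kinase genes tested 9 were lower and 1 higher (median -0.26), with *Ccna2*, the S phase cyclin, at -0.39, *Ccne2*, a cyclin of S phase entry, at -0.35 and *Cdc25a*, a phosphatase that activates CDK2, at -0.29. *Ccnd2*, a G1 cyclin induced by mitogens, was the one that rose, at 0.23 (adjusted p = 4.77e-05 from limma). Of 30 mitotic genes 21 were lower and 1 higher (median -0.16). Under at least 1 alternative 7 of the 21 lower calls were lost, as was the higher call, *Cenpf*, a kinetochore-associated protein, which was not called without WT replicate 3 (0.07, adjusted p = 0.127 from limma) or with DESeq2 (adjusted p = 0.0644). Among the 5 tested CDK inhibitors 1 was lower, *Cdkn1a*, at -0.44 (adjusted p = 1.23e-07 from limma), and 0 were higher. However, *Cdkn1b* (0.15) and *Cdkn2d* (0.11) were called higher without WT replicate 3 (adjusted p = 0.00111 and 0.00592 from limma). Both were also called higher with library weights (adjusted p = 0.00627 and 0.0124), and *Cdkn2d* under quantile normalization (adjusted p = 0.0236). No test of the difference between these lists and the replication genes was made.

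**Figure D5:**
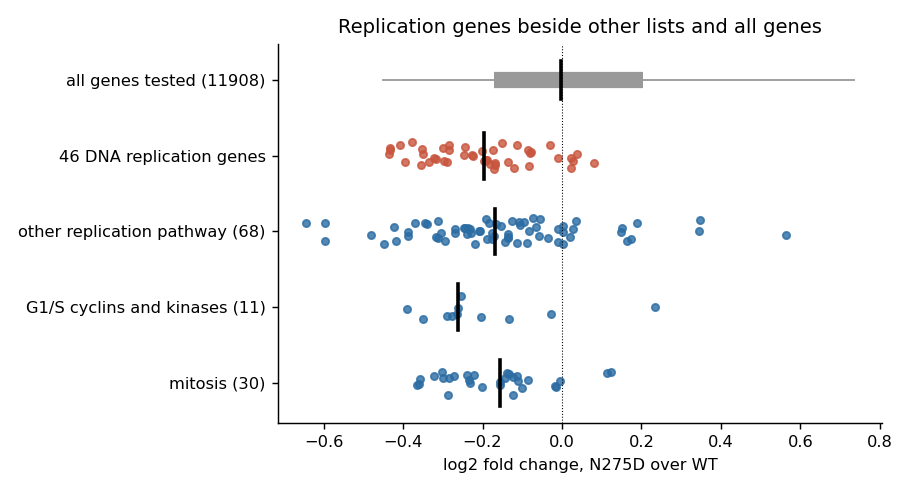
Log2 fold change of N275D over WT (horizontal axis) for the genes of each list, with black bars at the medians; for all 11908 genes tested the thick bar spans the middle 50% and the thin line the middle 90%. The 46 replication genes have a median of -0.20, the 68 other pathway genes -0.17, the 11 G1/S genes -0.26 and the 30 mitotic genes -0.16, against -0.0026 for all genes.

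Among the 46 genes the fold had a weak relation to abundance. Across genes, WT normalized reads per kilobase and the log2 fold change had a Spearman's rho of -0.26 over 46 genes that share the same 6 libraries, which is given as a description. Abundant members such as *Mcm5* and sparse ones such as *Gins1* were both among the lowest folds.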

How the data were processed

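RNA was sequenced in 3 WT and 3 N275D libraries. The labels name poly-A selection with a directional kit, while the methods describe strand-specific DNBSEQ mRNA libraries. Trimmed reads were aligned by the authors with STAR (build mm10) and counted by featureCounts, and DESeq2 was their test. Each deposited signal value is a read count of a gene scaled by the authors with a factor shared by the whole library (0.982 to 1.01), and within 1e-06 all values (100%) in each library were whole multiples of that factor. Columns of the authors' log2 fold changes, q-values and group averages were left out.

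Groups and replicate numbers came from the sample titles. The values + 1 were put on the log2 scale and fitted with limma (version 3.58.1, R 4.3.3; trended prior, no block) over the 11908 genes averaging 10 or more, with Benjamini-Hochberg adjustment and a threshold of 0.05. Replicates of a genotype had a median SD of 0.08 (log2). The fit was tested on simulated data in which all genes and libraries shared the same extra spread. It was therefore not tested for a library that stands apart, as WT replicate 3 did. edgeR (version 4.0.16) and DESeq2 (version 1.42.0) were run on the recovered reads as alternatives; edgeR called 6085 genes, DESeq2 5078 and limma 6056. The other alternatives were the pseudocount, the filter on low values, TMM and quantile scaling, no trend, library weights, the replicate block and each library left out.

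Every member could be named. Values in all libraries are given for the called gene with the largest fold in each role, *Pcna*, *Mcm2* to *Mcm7* and the ribonucleotide reductase genes, and further for *E2f1*, *E2f2* and a few pathway genes, picked after their values were seen. Of other lists, up to 3 called genes per direction were named, except that all E2F and pocket protein genes could be. Some genes of those lists whose call changed under an alternative were named as well, after their values were seen. The members and lists were chosen with earlier results of these data known. Coordinates and promoters are from RefSeq (GRCm38.p6, the build mm10); 36 of 47 member windows matched a transcript on the gene's strand and 0 on the other. Levels per kilobase use 1 GENCODE transcript per gene.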

Additional observations from a re-analysis of the deposited data

How the results depend on the processing

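Across 17 alternatives, between 27 and 35 of the 46 genes were called lower and 0 were called higher, against 33 as reported. Under every alternative 25 genes were called lower, and 8 lost their call under at least 1 of them (*Cdc7*, *Chaf1b*, *Mcm6*, *Pola1*, *Pold2*, *Prim2*, *Rfc1* and *Rfc2*). The median log2 fold change was -0.19 with TMM scaling, -0.17 with quantile normalization, -0.21 with library weights and -0.19 with edgeR, against -0.20 as reported, and the cause was not tested. Quantile normalization also moved the called folds of *Mcm4* to -0.15, *Rpa1* to -0.09, *Lig1* to -0.11 and *Dut* to -0.12, which stayed called. With 1 library left out the median ran from -0.22 to -0.18, and 29 to 35 genes were called. Without WT replicate 3, which stood apart, 35 were called. No pairing by replicate number was visible: deviations of same-numbered libraries correlated at -0.05, 0.04 and -0.08, and not every library correlated best with its own number. Such correlations cannot show that the samples were unpaired, which the labels do not state. With the replicate number as a block 33 genes were called, with the same median of -0.20, and all were among the 33 as reported, while the calls over all genes fell to 5727. Among the other lists the block lost the calls of *Donson*, *Topbp1*, *Clspn*, *Rnaseh2a* and *Cenpf*. With 3 libraries per genotype, small folds of sparse genes such as *Gins3* and *Pole2* have intervals wide enough to hold a change in either direction.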
